A study of Mus musculus with 8 samples.

Results

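Ccl3, Ccl4, Ccl5, Ccl6 and Ccl9 are 5 genes for CC chemokines, small secreted proteins that draw leukocytes along a gradient, and Ccr1 encodes a receptor for several of them. These 6 genes, of 32285 in the count matrices, were chosen from measured values of the same data, because Ccl5 had moved in opposite directions with irradiation in the 2 genotypes. The Ccl5 contrast is therefore given as a description, with no test. All 6 genes had at least 100 transcript counts in every comparison, so no member was lost to a minimum.

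The study sorted live CD45+CD11b+Ly6Chi cells, the gate of monocytic myeloid-derived suppressor cells, from MC38 tumors and from blood of mice that carried them. MC38 is a mouse colon adenocarcinoma line, grown here under the skin. Tumors received 1 local dose of 20 Gy (IR) or no irradiation (control), and the cells were collected 3 days after IR. Every library held Ythdf2 fl/fl mice without Cre (WT) and Ythdf2 fl/fl mice carrying Lyz2-Cre (cKO), each marked with its own hashtag, an antibody that carries a DNA barcode. Lyz2-Cre, a Cre inserted at the lysozyme 2 gene, acts in neutrophils, macrophages and part of the monocytes, so the WT and cKO animals share the floxed allele and differ in the Cre. The methods give male and female mice of 8 to 10 weeks and pools of 5 mice per group. This makes 8 groups, 4 libraries (blood control, blood IR, tumor control, tumor IR) by 2 labels, with 1 pool in each. A pool is 1 sample, so no difference between groups has a replicate check, and every interval below covers counting error only.

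CCL3 and CCL5 bind the receptor CCR1. CCL6 and CCL9 are chemokines found in rodents but not in humans, and both can signal through CCR1. Activated macrophages and neutrophils are known for making CCL3 and CCL4, natural killer (NK) cells and memory T cells for storing and releasing CCL5, and neutrophils and monocytes for carrying CCR1. In tumors this axis is known for bringing in monocytes, NK cells and T cells.

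After filtering, 27534 cells were kept, from 2135 to 4601 per group, with 18914324 to 24293320 gene UMIs per group. A UMI, or unique molecular identifier, counts 1 captured transcript, and levels are given as CPM, the UMIs of a gene scaled to 1000000 gene UMIs of the group. Median UMIs per cell ran from 2847 to 3198 in the blood groups and from 5989 to 8337 in the tumor groups. Ythdf2 went against the label, at 304 to 373 CPM in the 4 groups labelled cKO and 32.6 to 54.0 CPM in those labelled WT, whereas Lyz2 stood at 83.6 to 122 CPM under the cKO label and 5682 to 14252 CPM under WT. A 3′ count does not read a deletion elsewhere in a transcript, and which part of Ythdf2 is floxed is not given in the sources used here. Cells are accordingly called labelled WT or labelled cKO, and the label was set by the hashtag alone. Lyz2, the gene into which the Cre is inserted, was low under the cKO label in every library, whereas Ythdf2 was not. The gate markers Ptprc (CD45), Itgam (CD11b) and Ly6c2 were present in each group, but Ly6c2 ranged from 162 CPM in tumor control cells labelled cKO to 1481 CPM.

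The tumor matrices held each other's cells. Of 12437 barcodes past the gene filters in tumor control, 7124 had under 20 hashtag UMIs, and 6461 of those were kept cells of tumor IR. Of 12520 in tumor IR, 4796 had under 20 hashtag UMIs, and 4325 were kept cells of tumor control. The hashtag minimum removed them, leaving 32 barcodes kept in both tumor libraries. Read from the other tumor matrix instead, the levels of the 6 genes in the same cells moved by -0.09 to 0.07 on the log2 scale.

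In the mouse genome (GRCm38), the 5 chemokine genes lie within 139 kb of chromosome 11, in the order Ccl5 (83525778 to 83530518, minus strand), Ccl9 (83572919 to 83578636, minus), Ccl6 (83587882 to 83593087, minus), Ccl3 (83647844 to 83649355, minus) and Ccl4 (83662584 to 83664683, plus). Ccr1 is on chromosome 9 (123962124 to 123968692, minus). All 6 are annotated as protein coding. Ccl6 is overlapped on the opposite strand by E230016K23Rik. The promoters of Ccl6 and Ccl9 are shown because these neighbours, which differed in their cell types below, share stretches of sequence around their starts. They are RefSeq windows on GRCm38.p6, both on the minus strand, at chr11:83593038-83593337 for Ccl6 and chr11:83578587-83578886 for Ccl9. Capitals mark bases covered by runs of at least 10 bases that both windows hold, 46 bases in Ccl6 and 40 in Ccl9.
Ccl6: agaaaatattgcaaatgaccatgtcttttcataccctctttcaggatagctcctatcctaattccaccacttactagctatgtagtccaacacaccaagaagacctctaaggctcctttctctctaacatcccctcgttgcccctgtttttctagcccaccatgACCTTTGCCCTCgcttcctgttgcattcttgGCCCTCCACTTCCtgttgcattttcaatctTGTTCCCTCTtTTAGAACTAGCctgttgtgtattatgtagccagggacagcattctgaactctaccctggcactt
Ccl9: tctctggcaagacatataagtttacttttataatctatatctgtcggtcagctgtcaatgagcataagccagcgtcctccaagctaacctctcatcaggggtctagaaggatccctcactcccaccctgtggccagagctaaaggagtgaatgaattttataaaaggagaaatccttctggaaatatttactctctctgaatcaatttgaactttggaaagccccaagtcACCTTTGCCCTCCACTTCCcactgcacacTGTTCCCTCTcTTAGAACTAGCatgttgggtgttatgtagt
RefSeq windows were at hand for 4 of the 6 genes, Ccl3, Ccl6, Ccl9 and Ccr1, and were searched on both strands. The AP-1 motif TGANTCA was in Ccl9 and in 7.81% of 32851 promoters. The NF-kB motif was in Ccl9 and Ccr1 and in 8.46% of promoters, and ACTTCCT, an ETS motif, in Ccl6 and in 9.35%. ISRE (GAAA blocks separated by NN), PU.1 (GAGGAAG) and C/EBP (TTGCNNAA) matched none of these 4 windows and 3.44%, 13.6% and 10.8% of all promoters. A match is a string of letters, not a measured site.

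Ccl3 and Ccl4 were low in blood and high in tumors, and their levels were highest in the irradiated tumors. Ccl3 stood at 70.2 CPM in blood control cells labelled WT, 34.0 in those labelled cKO, and 31.8 and 22.7 in blood IR labelled WT and cKO. In tumor control it was 262 CPM labelled WT and 387 labelled cKO, and in tumor IR 782 and 612. Every tumor group was above every blood group. Ccl4 followed the same layout, with 87.9 and 64.7 CPM in blood control labelled WT and cKO, and 30.4 and 35.4 in blood IR. In tumor control it was 571 labelled WT and 1219 labelled cKO, and in tumor IR 1676 and 1582. The intervals of Ccl3 in blood control labelled cKO and blood IR labelled WT overlapped, as did those of Ccl4 in the pair of blood IR groups.

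Ccl5 had a different order. It was highest in tumor control cells labelled WT, at 819 CPM (95% interval 806 to 831), and second in blood control labelled WT, at 624 (613 to 635). Tumor IR labelled cKO held 550 CPM (541 to 559) and tumor IR labelled WT 438 (429 to 447). Blood IR labelled WT stood at 346 (339 to 354) and tumor control labelled cKO at 277 (270 to 284). The lowest were blood control and blood IR labelled cKO, at 183 (177 to 189) and 174 (168 to 180), whose intervals overlapped. These UMIs sat in few cells. The 1% of cells with the most Ccl5 UMIs held 29.3% to 33.3% of all Ccl5 UMIs in the tumor groups and 40.3% to 87.6% in the blood groups.

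Ccl6, Ccl9 and Ccr1 were spread over more cells. Ccl6 was the reverse of Ccl3, with 1774 to 2109 CPM in the blood groups, 618 and 505 CPM in control tumors labelled WT and cKO, and 1163 and 1181 in irradiated ones. A Ccl6 UMI was present in at least 89.1% of the cells of each blood group and 55.7% to 64.2% of tumor cells. Ccl9 ran from 221 to 246 CPM in blood, and stood at 342 and 296 in control tumors and 444 and 450 in irradiated ones. Ccr1 stood at 448 CPM labelled WT and 347 labelled cKO in blood control and at 381 and 384 in blood IR. In tumors it was 300 and 263 without irradiation and 496 and 563 with it. The intervals of tumor IR labelled WT and cKO overlapped for Ccl6 and for Ccl9, and those of blood IR for Ccr1.

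**Figure D1:**
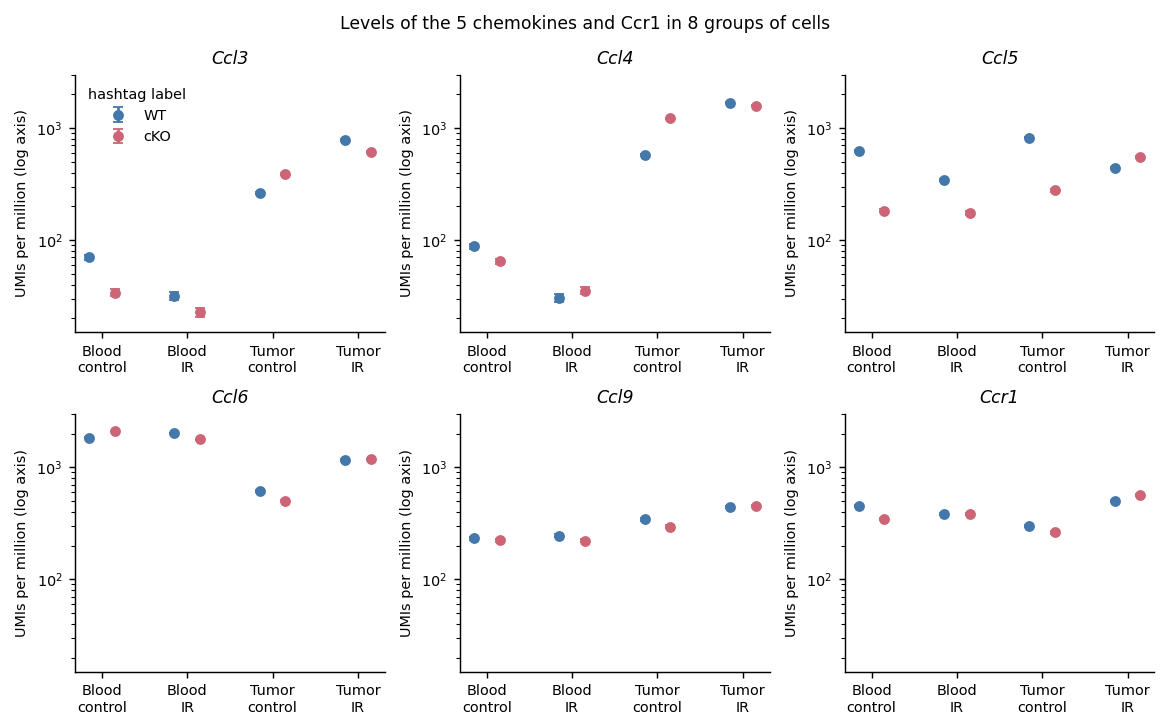
Level of each gene in the 8 groups, in CPM on a log axis, with cells labelled WT in blue and cKO in red and exact Poisson 95% intervals that are mostly smaller than the points. Ccl3 and Ccl4 are above 200 in each tumor group and below 100 in each blood group, whereas Ccl5 labelled WT is lower with irradiation in both tissues and Ccl5 labelled cKO goes from 277 to 550 in tumors.

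Irradiated and control groups were compared within each tissue and label as log2 ratios of CPM, with 1 UMI added. A gene was counted as past the limit at an absolute log2 ratio of 1 or more with at least 100 UMIs over the 2 groups. In tumors labelled WT, Ccl3 (1.57, interval 1.53 to 1.62) and Ccl4 (1.55, 1.52 to 1.58) were higher with IR, 2 of 6 members past the limit against 4.86% of all genes tested. In tumors labelled cKO, 2 of 6 were past it, Ccl6 (1.22, 1.19 to 1.26) and Ccr1 (1.10, 1.05 to 1.14), against a background of 21.3%. There, Ccl3 (0.66) and Ccl4 (0.38) were below the limit, and Ccl4 was at -0.04 without the fibroblast-like cluster 16. In blood labelled WT, Ccl3 (-1.14, -1.27 to -1.01) and Ccl4 (-1.53, -1.66 to -1.40) were lower with IR, 2 of 6 against 1.18%. In blood labelled cKO no member was past the limit, against 1.3%, with Ccl3 at -0.58 and Ccl4 at -0.87, the latter 0.10 without NK cell-like and mature dendritic cell-like cells. The median log2 ratio of all genes tested was -0.12 and -0.18 in tumors labelled WT and cKO and 0.03 and 0.07 in blood, while that of the 6 members was 0.82, 0.83, -0.54 and -0.16.

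Ccl5, by which the genes were chosen, was lower with IR in tumors labelled WT, at a log2 ratio of -0.90 (-0.94 to -0.86), and higher in tumors labelled cKO, at 0.99 (0.95 to 1.03). Both were just short of the limit of 1. In blood it was -0.85 (-0.89 to -0.81) labelled WT and -0.07 (-0.14 to -0.00) labelled cKO. Ccl9 was 0.38 and 0.61 in tumors labelled WT and cKO, and 0.08 and -0.01 in blood. Ccl6 was 0.91 in tumors labelled WT, and Ccr1 0.73. In blood, Ccl6 was 0.13 (0.11 to 0.15) labelled WT and -0.25 (-0.27 to -0.23) labelled cKO, while Ccr1 was -0.23 (-0.28 to -0.19) and 0.15 (0.10 to 0.19).

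The labels were compared within each library in the same way. In tumor control, Ccl4 was higher (1.09, 1.06 to 1.13) and Ccl5 lower (-1.56, -1.61 to -1.52) under the cKO label than under WT, 2 of 6 members against 6.29% of all genes. Ccl3 was 0.56 there. The fibroblast-like cluster 16 gave 29.2% of all gene UMIs of tumor control labelled cKO and 14.2% of those labelled WT. Without this cluster, the label ratio in tumor control went from -0.21 to 0.06 for Ccl9 and from -0.19 to 0.09 for Ccr1. In blood control, Ccl3 (-1.04, -1.18 to -0.91) and Ccl5 (-1.77, -1.82 to -1.72) were lower labelled cKO, 2 of 6 against 2.18%. No member was past the limit in blood IR, against 0.684%, where Ccl5 came nearest at -0.99 (-1.05 to -0.93), or in tumor IR, against 1.05%, where the 6 ratios ran from -0.35 for Ccl3 to 0.33 for Ccl5. These ratios reuse the groups of the irradiation contrasts, so they are the same 8 levels read another way.

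The sorted cells fell into 22 clusters, formed without the 6 genes. Clusters are called by the cell type whose markers they raised, with "-like", and by number where no type led. In bulk sums such as these, fewer cells of a type and less RNA per cell cannot be told apart, so the levels were also taken within clusters. In blood, 67.3% to 71.5% of the cells were neutrophil-like, whereas the tumor groups held macrophage-like cells and the unnamed clusters 2, 5, 6, 8 and 12.

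Ccl5 was most abundant in the NK cell-like cluster 10 (751 cells), at 15304 CPM, and in the mature dendritic cell-like cluster 18 (149 cells, tumors only), at 8485 CPM. The unnamed cluster 2, led by Cfb, Nos2, Rsad2 and Ifit2, held 586 CPM, and cluster 15, led by the cycling genes Pclaf, Mki67 and Top2a, held 578. Cluster 15 (468 cells) raised macrophage markers but also held cells with UMIs of the T cell genes Cd3d, Cd3e or Cd3g, so it is given by number. With each cell thinned to 1000 UMIs, 94.7% of NK cell-like and 81.2% of mature dendritic cell-like cells had a Ccl5 UMI, against 0.764% of neutrophil-like and 1.28% of fibroblast-like cells, shares taken as the background. The median depths before thinning were 3014, 6390, 2601 and 29679 UMIs. NK cells lie outside the myeloid gate by lineage, though some carry CD11b.

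Ccl3 and Ccl4 were together in cluster 12, at 13164 and 20800 CPM, and next in cluster 8, at 1330 and 2383. Cluster 12 (632 cells) was led by Ccl3, G0s2, Ccl4 and Acod1 and raised Cxcr2 and Il1r2, which neutrophils express. These were its 2 raised neutrophil markers, under the minimum of 3 for a name. With clusters formed at the finer resolution of 1.2, 17 of its 18 blood cells and 8 of its 614 tumor cells fell into a basophil or mast cell-like cluster led by Il4, Mcpt8 and Cpa3. Cluster 8 was led by Hspa1a, Mmp13, Pf4 and Mmp12. Macrophage-like cluster 13 held 2206 CPM of Ccl4 and 370 of Ccl3, cluster 2 held 1452 and 414, and neutrophil-like clusters at most 77.5 and 81.3.

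Ccl6 was high in neutrophil-like cells (3396 CPM over the class) and in clusters 12 (4688) and 8 (2504), and at 33.4 CPM in NK cell-like cells. Ccl9 was the opposite in neutrophil-like cells, at 11.6 CPM, and reached 422 CPM in classical monocyte-like cells, 609 in macrophage-like cluster 13 and 1232 in cluster 8. Ccr1, the receptor, followed Ccl6 rather than Ccl9 in neutrophil-like cells, at 931 CPM, and stood at 1817 in cluster 12. In classical and nonclassical monocyte-like cells it was 62.1 and 57.8 CPM, where Ccl6 was not low. Classical monocyte-like cells held 23.6% of the Ccl6 UMIs of blood control labelled WT, and 4.22% of its Ccr1 UMIs.

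**Figure D2:**
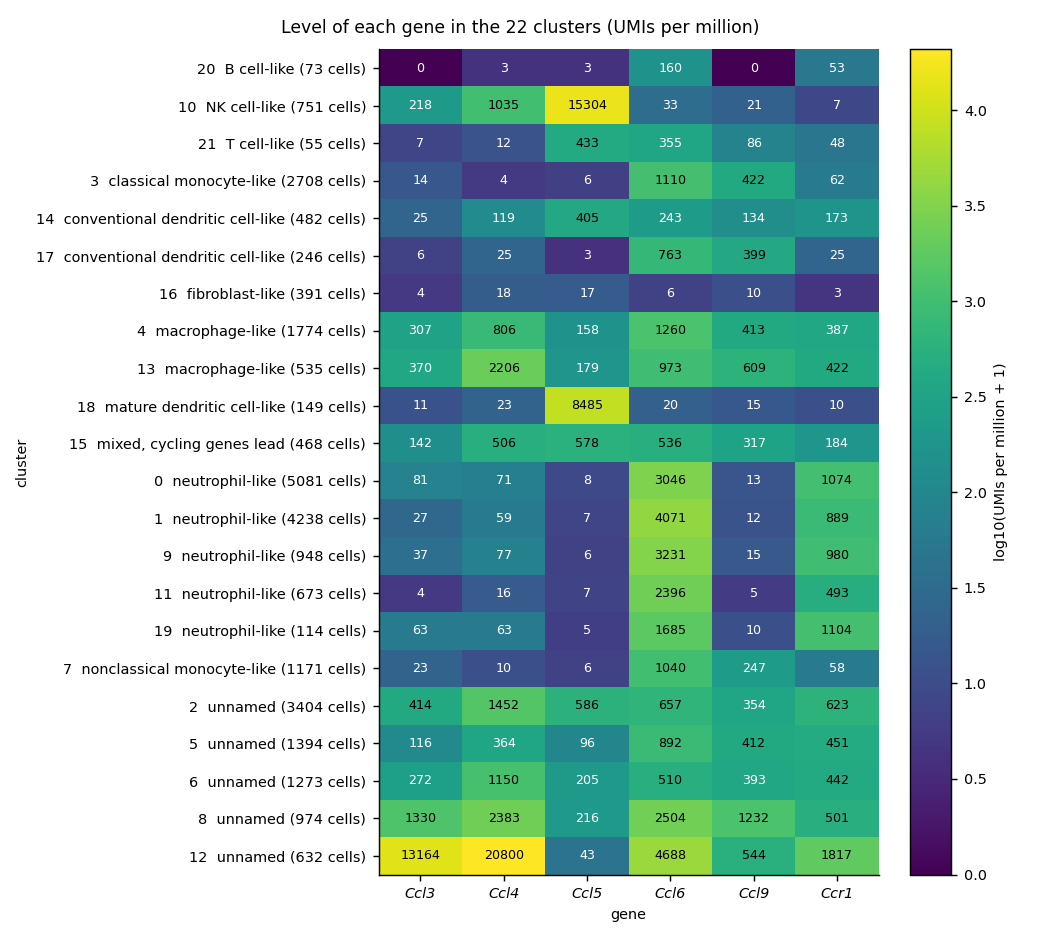
Level of each gene in the 22 clusters over all groups, printed in CPM and coloured by log10 of that level plus 1, with the number of cells of each cluster. Ccl5 peaks in clusters 10 and 18, Ccl3 and Ccl4 in cluster 12, and Ccl6 and Ccr1 in cluster 12 and the neutrophil-like clusters.

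In blood, the Ccl5 differences went with the number of NK cell-like cells. These cells held 96.5% and 95.7% of the Ccl5 UMIs of blood control labelled WT and cKO, and 98.1% and 98.8% of those of blood IR. They numbered 202 of 4601 cells labelled WT (4.39%) and 55 of 3822 labelled cKO (1.44%) in blood control, and 104 of 4104 (2.53%) and 44 of 3422 (1.29%) in blood IR. Within the cluster, Ccl5 stood at 18349 CPM labelled WT and 18058 labelled cKO in blood control, a log2 ratio of -0.02 (-0.08 to 0.03), and at 19676 CPM in blood IR labelled WT, 0.10 (0.06 to 0.14) above control. Summed CPM of 8 NK cell markers, all 8 found in each group, went the same way, at 884 and 259 in blood control labelled WT and cKO and 514 and 263 in blood IR. Summed CPM of 8 T cell markers was 78.8 and 30.6 in blood control and 31.7 and 14.5 in blood IR, with Cd4 at 0 in the last of these. With the cluster makeup of the second group given to the first, the label ratio of Ccl5 in blood control went from -1.77 to -0.06 and that in blood IR from -0.99 to 0.03, and the IR ratio labelled WT went from -0.85 to 0.06. This weighting was added after the data had been seen.

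In tumors, Ccl5 came from more clusters. In tumor control labelled WT, NK cell-like cells gave 264 of the 819 CPM, cluster 2 gave 158, mature dendritic cell-like cells 145 and cluster 15 gave 90.8. In tumor IR labelled WT, these came to 77.0, 210, 55.5 and 5.91 CPM. In tumor control labelled cKO, NK cell-like cells gave 84.7 of the 277 CPM, cluster 2 gave 55.7 and mature dendritic cell-like cells 47.8, and in tumor IR labelled cKO these came to 133, 200 and 126. Cell numbers differed along with them. NK cell-like cells made up 4.78% and 1.75% of tumor control and tumor IR labelled WT, and 2.62% and 3.01% labelled cKO. Mature dendritic cell-like cells numbered 27 and 28 labelled WT, and 19 and 75 labelled cKO, so these values rest on few cells. Summed CPM of the 8 NK cell markers was 571 and 214 in tumor control labelled WT and cKO and 260 and 369 in tumor IR. Summed CPM of the 8 T cell markers, all 8 found in each group, was 104 and 50.4 in tumor control labelled WT and cKO and 25.4 and 37.7 in tumor IR. The part of NK and T cells in the tumor Ccl5 levels was not tested.

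Within clusters of at least 50 cells in both groups and 100 Ccl5 UMIs, the opposite directions were found in part of the tumor clusters. In cells labelled WT, Ccl5 was lower with IR in 7 of 8 clusters and higher in 1, the conventional dendritic cell-like cluster 14 (0.91). In cells labelled cKO it was lower in 3 of 8, higher in 4, and 1 interval included 0. The clusters were not all the same. By the minimum of 50 cells, the tumor IR contrast used cluster 15 only labelled WT and cluster 13 only labelled cKO. Cluster 14 was higher labelled cKO too, with 64 Ccl5 UMIs in 81 control cells and 353 in 129 IR cells. Cluster 13 labelled cKO was also higher, with 185 UMIs in 297 control cells and 155 in 66 IR cells. The median depth of these cells was 10650 UMIs in control and 3715 with IR. Cluster 2, with the most cells, was lower under both labels, from 888 to 523 CPM labelled WT (-0.76, -0.83 to -0.70) and from 764 to 499 labelled cKO (-0.62, -0.70 to -0.53), as were clusters 4 (-0.52 and -1.16) and 5 (-0.62 and -1.57). At the finer resolution of 1.2, a cluster led by Ifit1bl1, Ifit2 and Rsad2 held 32 and 11 cells of tumor control labelled WT and cKO. It held 475 and 493 of tumor IR. Ratios within cluster 2, which Rsad2 and Ifit2 also led, may therefore still hold differences in makeup, which was not tested. The directions were opposite in cluster 8 (-1.64 and 0.83) and in NK cell-like cells (-0.33, -0.41 to -0.25, and 0.20, 0.12 to 0.28). With cluster makeup held, the IR ratio of Ccl5 in tumors was -0.63 labelled WT and 0.48 labelled cKO, against -0.90 and 0.99. Without the NK cell-like and mature dendritic cell-like clusters, it was -0.44 labelled WT and 1.03 labelled cKO, and the label ratio of Ccl5 in tumor IR went from 0.33 to -0.06.

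Tumor control labelled cKO also had less Ccl5 inside clusters. Macrophage-like cluster 13 held 57.1 CPM of Ccl5 against 361 labelled WT (-2.65), and conventional dendritic cell-like cluster 14 held 98.8 against 383 (-1.94). In cluster 15, the Ccl5 UMIs lay mostly in the cells with a Cd3d, Cd3e or Cd3g UMI, 1768 of 1802 UMIs in 42 cells labelled WT and 377 of 480 in 29 cells labelled cKO. The cluster's other cells, 35 and 144, held 77.6 and 59.5 CPM. In all, 8 of 9 clusters, cluster 15 among them, were lower labelled cKO and 1 was higher. In tumor IR, 5 of 7 were lower and 2 higher, with cluster 2 at -0.07 and cluster 8 at 1.52.

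**Figure D3:**
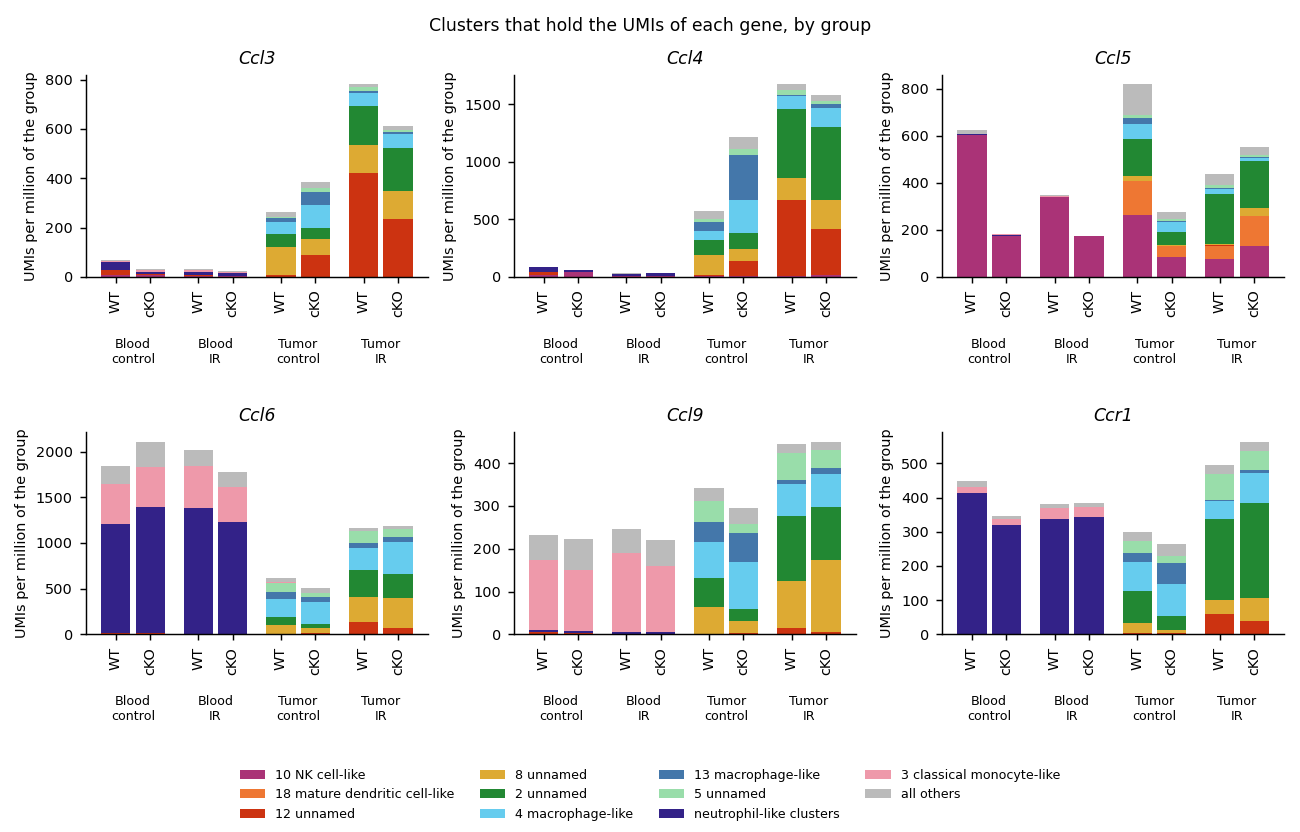
Contribution of clusters to each gene's level in the 8 groups, stacked in CPM of the group, with linear axes that start at 0. NK cell-like cells (cluster 10) fill nearly all of Ccl5 in blood, cluster 12 is the largest block of Ccl3 in tumor IR labelled WT, and neutrophil-like clusters hold most of Ccl6 and Ccr1 in blood.

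Ccl3 in irradiated tumors, and Ccl4 in part, went with cluster 12. It made up 0.67% and 1.41% of tumor control labelled WT and cKO, and 10.2% and 6.55% of tumor IR, with 321 and 246 cells. In tumor IR it held 53.9% and 38.2% of the Ccl3 UMIs labelled WT and cKO, and 39.2% of the Ccl4 UMIs labelled WT, with 9616 of 38425 labelled cKO. Within it, Ccl3 was 13297 CPM labelled WT and 11927 labelled cKO (-0.16), and Ccl4 20754 and 20174 (-0.04). In tumor control labelled cKO, 4 basophil or mast cell-like cells held 1410 of the 2042 Ccl3 UMIs and 2192 of the 3055 Ccl4 UMIs of cluster 12. Summed CPM of 12 neutrophil markers was 427 labelled WT and 367 labelled cKO in control tumors, against 1952 and 1362 in irradiated ones. Of the 12, 9 to 11 had a UMI in these groups, with Camp, Ngp or Ly6g among those at 0. Without cluster 12, a choice made after the data had been seen, no member was past the limit in tumors labelled WT, with Ccl3 at 0.53 and Ccl4 at 0.91. The part of neutrophils in these levels was not tested.

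The macrophage-like and unnamed tumor clusters added a second difference, between the labels. With IR, Ccl4 labelled WT was higher in cluster 2, from 749 to 1488 CPM (0.99, 0.93 to 1.05), in cluster 4, from 311 to 859 (1.47), and in cluster 5, from 212 to 319 (0.59), whereas cluster 8 was at 2344 and 2324 (-0.01). Labelled cKO, the same clusters were lower with IR, cluster 2 going from 1961 to 1588 (-0.30), cluster 4 from 1069 to 1003 (-0.09), cluster 5 from 1061 to 229 (-2.21) and cluster 8 from 3954 to 2113 (-0.90). Over the clusters with values, 5 of 8 were higher and 1 lower labelled WT, and 2 of 8 higher and 6 lower labelled cKO. Cluster 15 was only among the former and cluster 13 only among the latter. NK cell-like cells were higher under both labels, at 1.32 and 1.39. Ccl3 labelled WT was higher in 3 of 6 clusters and lower in 2, and labelled cKO higher in 1 and lower in 4. Free RNA, read from barcodes below the cells, held Ccl4 at 1586 CPM in tumor control and 2009 in tumor IR. The Ccl4 levels of clusters 4 and 5 were below these, and the part of free RNA in them was not tested.

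The levels of these clusters in tumors without irradiation differed too. There, Ccl4 was higher labelled cKO than labelled WT in 7 of 10 clusters, among them cluster 5 (2.32, 2.17 to 2.48), cluster 4 (1.78, 1.70 to 1.86) and cluster 13 (1.39, 1.31 to 1.47), and lower in 1, the fibroblast-like cluster (-1.15). Cluster 13 alone gave 391 of its 1219 CPM, and made up 13.9% of the cells labelled cKO and 5.21% of those labelled WT. Ccl3 was higher in 5 of 7 clusters, with 2.72 in cluster 5 and 1.18 in cluster 2. In tumor IR the labels were nearer, Ccl4 running from -0.92 to 0.39 over 8 clusters. With cluster makeup held, the IR ratios of Ccl3 and Ccl4 were 0.54 and 0.65 labelled WT and -0.25 and -0.32 labelled cKO.

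**Figure D4:**
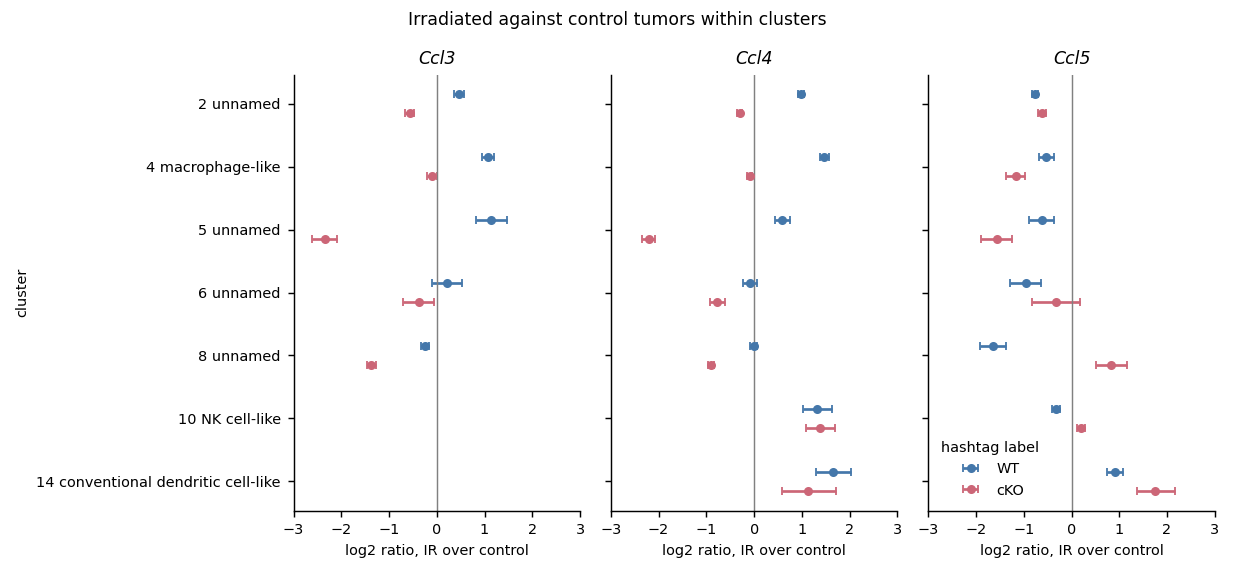
Log2 ratio of irradiated over control tumors within 7 clusters for cells labelled WT (blue) and cKO (red), with exact 95% counting intervals, drawn where the compared groups held at least 100 UMIs of the gene. For Ccl4, WT points of clusters 2, 4 and 5 lie right of 0 and cKO points left of it, while for Ccl5 clusters 2, 4 and 5 are left of 0 under both labels.

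In blood, the UMIs of Ccl3 and Ccl4 were divided over neutrophil-like, monocyte-like and NK cell-like cells. The neutrophil-like cluster 0 held 36.8% of the Ccl3 UMIs in blood control labelled WT and 29.9% in blood IR, at 114 and 59.2 CPM within the cluster (-0.94, -1.18 to -0.72). Labelled cKO, the same cluster was at 49.2 and 72.6 CPM (0.56, 0.18 to 0.95). Another 29.3% of the Ccl3 UMIs of blood control labelled WT lay in 9 cells of cluster 12, all basophil or mast cell-like at the finer resolution. Without cluster 12, the IR ratio in blood labelled WT was -0.73 for Ccl3 and -1.20 for Ccl4. In blood control labelled cKO, NK cell-like cells held 67.0% of the Ccl4 UMIs, at 4468 CPM against 594 labelled WT, and 571 of the 1244 Ccl4 UMIs of that group were in 1 cell.

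Ccl6 and Ccr1 were higher with IR inside several tumor clusters under both labels, Ccl6 in 3 of 7 labelled WT and 5 of 7 labelled cKO, with 1 lower each time. Ccl6 in macrophage-like cluster 4 went from 760 to 1810 CPM labelled WT (1.25, 1.19 to 1.31) and from 926 to 2024 labelled cKO (1.13, 1.08 to 1.18), and in cluster 8 from 1362 to 3275 (1.27) and from 1971 to 2723 (0.47). Cluster 13 labelled cKO went from 383 to 4002 CPM (3.39), in 297 and 66 cells. The median depth of these cells was 10650 UMIs in tumor control and 3715 in tumor IR, so they differed in depth as well. With cluster makeup held, the IR ratio of Ccl6 was 1.16 labelled WT and 1.39 labelled cKO. Ccr1 was higher in 6 of 7 clusters labelled WT and 5 of 7 labelled cKO, and lower in none, with ratios in cluster 5 of 0.75 and 0.52. Its tumor ratio labelled cKO was 1.10 and became 0.34 with makeup held. Fibroblast-like cells, which held 3.44 CPM of Ccr1, gave 29.2% of all gene UMIs in tumor control labelled cKO and 5.37% in tumor IR, and without them no member was past the limit in tumors labelled cKO.

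Ccl9 had the narrowest ratios of the 6 genes, none above 0.61 in absolute size in the 8 comparisons. In tumors its IR ratio within clusters was highest in clusters 4 (0.79) and 8 (0.61) labelled WT and in clusters 13 (1.03) and 8 (0.43) labelled cKO, while cluster 2 was at -0.03 and -0.34. In blood, 63.9% to 75.5% of its UMIs were in classical monocyte-like cells, at 464, 432, 437 and 360 CPM in blood control and blood IR labelled WT and cKO.

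Most of the Ccl6 UMIs of blood were in neutrophil-like cells. With IR it was higher in clusters 0 and 1 labelled WT (0.18 and 0.27) and lower labelled cKO (-0.31 and -0.12), as in the whole groups. Labelled cKO, 5 of 6 clusters were lower and 1 higher. Neutrophil-like cluster 11 made up 13.3% of blood control labelled cKO and 1.06% to 1.93% of the other blood groups, so 1 of the 4 blood groups held a cluster that the others nearly lacked. Ccr1 in clusters 0 and 1 was -0.19 and -0.25 with IR labelled WT, and 0.02 (-0.07 to 0.11) and -0.01 (-0.08 to 0.07) labelled cKO.

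Other genes of the axis were read from lists of 6 further ligands, 5 further receptors and decoys, 14 receptor signalling genes and 12 known regulators of these chemokines. At least 100 UMIs were reached by 1 of the further ligands in blood and 5 in tumors, by 2 of the receptors and decoys in each tissue, and by all signalling genes and regulators. In the tumor IR contrast, the medians labelled WT and cKO were 0.60 and -0.21 for the ligands, 0.52 and 0.62 for the receptors and decoys, 0.06 and 0.40 for signalling and 0.05 and -0.00 for the regulators, beside -0.12 and -0.18 over all genes. Of the ligands, Ccl2, the main monocyte attractant, was lower labelled cKO than WT in blood control (37.7 against 88.1 CPM) and higher in tumor control (2510 against 1249). Ccl8 was higher labelled cKO in tumor IR, at 89.1 CPM (log2 ratio 1.08). Of the receptors and decoys, Ccrl2, an atypical receptor that binds chemerin, was lower labelled cKO in blood control (75.7 against 164) and blood IR (57.8 against 124).

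Of the signalling genes, Rgs1, which damps chemokine receptor signals, was lower with IR in blood under both labels (log2 ratio -1.47 labelled WT, and -1.13 labelled cKO, from 12.2 to 5.55 CPM), and lower labelled cKO than WT in both blood libraries. None of the 14 signalling genes was past the limit in tumors. With IR, 4.86% of all genes tested were past it in tumors labelled WT and 21.3% in tumors labelled cKO. Between the labels, the shares were 6.29% in tumor control and 1.05% in tumor IR. In blood they were 1.18% and 1.3% with IR, labelled WT and cKO. Between the labels they were 2.18% in blood control and 0.684% in blood IR. The calls in the other lists have the same backgrounds. Of the regulators, Irf7, an interferon-induced factor, was higher with IR in tumors under both labels, from 114 to 563 CPM labelled WT and from 47.6 to 502 labelled cKO, and lower labelled cKO in tumor control. Tnfaip3, which restrains NF-kB, was lower labelled cKO in blood IR (33.5 against 76.0).

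The genes with the most similar pattern were sought over 69 sums of cluster and group, as Pearson's r of log2(CPM + 10), a description in which the sums share libraries and depth. Ccl3 and Ccl4 were most like each other (r = 0.92), followed by F3 and Cxcl3 for Ccl3 (0.85 each) and Rabgef1 and Dusp5 for Ccl4 (0.86 each). Ccl5 was most like Arap2, H2-Q6 and AW112010 (0.91 each), and against Ccl6 it had r = -0.66. Ccl6 was most like Lrrc25, Tpd52 and Wfdc17 (0.90 each), Ccl9 like Ctsb, Mfsd1 and Fcgr2b (0.90 to 0.91), and Ccr1 like Trem1, Cd300lf and Hk3 (0.93 to 0.95). Ccl6 and Ccr1 had r = 0.80.

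Co-detection was read in single cells. Among 27038 cells thinned to 1000 UMIs, 57.7% of those with a Ccl3 UMI had a Ccl4 UMI, against 13.7% of all cells. Of cells with a Ccr1 UMI, 69.4% had Ccl6, against 59.1% of all cells, and of cells with a Ccl5 UMI, 17.8% did. Unthinned, 86.9% of Ccl3 UMIs were in cells that also had Ccl4. Free RNA, read from barcodes below the cells, held Ccl5 at 1035, 293, 976 and 834 CPM in blood control, blood IR, tumor control and tumor IR, so a single Ccl5 UMI in another cell type is not evidence of expression there.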

How the data were processed

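The authors deposited raw UMI counts per gene and hashtag for all barcodes of 4 Chromium 3′ libraries, with no normalization. The methods name Cell Ranger 6.0.1 and mm10 with GENCODE vM23, and the file headers a Cell Ranger of major version 4. From these counts, cells were taken by an order-of-magnitude cutoff and a test against free RNA at a minimum of 500 UMIs, and kept with at least 200 genes, at most 25% mitochondrial UMIs and 20 hashtag UMIs. A cell was labelled WT where hashtag B0301 was at least B0302, and cKO where B0302 was at least 4 times B0301. This left out 392 to 500 barcodes per library between these limits. The WT side had no margin, so many tumor cells labelled WT carried both hashtags. Median B0301 and B0302 UMIs were 517 and 152 in tumor control labelled WT. With 4 times asked of both sides, 1007 of 2551 tumor control and 2423 of 3144 tumor IR cells labelled WT remained. In blood, 4536 of 4601 control and 4064 of 4104 IR cells labelled WT did. The 6% of barcodes with the highest doublet scores were removed per library. That score marked 21.4% to 43.0% of the barcodes between the limits and 4.01% to 4.91% of the assigned ones.

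Clusters came from a Louvain partition (python-igraph 0.11.9) at resolution 0.8, on 40 principal components of 2000 variable genes and 20 neighbors, without the members, the pathway genes, Lyz1, Lyz2 and Ythdf2. CPM carry exact Poisson 95% intervals and log2 ratios exact conditional binomial ones (scipy 1.17.1). No p-values were computed, since each group is 1 pool. Named genes were all 6 members, pathway genes past the limit, and the 3 genes most like each member. The members and lists were chosen with earlier results of these data known. The ratio and interval code was tested on simulated counts. Alternatives were another hashtag margin, HTODemux (Seurat 5.3.0), other cell calling, no doublet removal, TMM (edgeR 4.0.16), other resolutions and subsets of cells. Those that left out clusters 10, 12, 16 or 18 or held the cluster makeup, and the looks inside clusters 12 and 15, were chosen after seeing the data. Certain genes of the lists are not reported here.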

Additional observations from a re-analysis of the deposited data

Results flagged for a closer look

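The IR ratio of Ccl5 in tumors had opposite signs under the labels, -0.90 labelled WT and 0.99 labelled cKO, a difference (cKO minus WT) of 1.89 on the log2 scale. In blood, the IR ratios of Ccl6 were 0.13 labelled WT and -0.25 labelled cKO, a difference of -0.38. Those of Ccr1 in blood were -0.23 and 0.15, a difference of 0.38. In all 3 cases the counting intervals lay on opposite sides of 0. With 1 pool per group these differences were not tested, and the Ccl5 difference is the one by which the genes were chosen.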

How the results depend on the processing

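No called ratio changed sign under any alternative run, but the counts of members past the limit depended on several. The shares of all genes past the limit given above are for the main setting only. The counts below therefore have no background of their own, and show the dependence on the setting, not a result about the members. In tumors labelled WT (2 members), the count was 0 without cluster 12, 1 with cluster makeup held and 3 with TMM (Ccl6 at 1.05). Labelled cKO (2), it was 0 with myeloid clusters alone, 0 without cluster 16 and 1 with makeup held, and 3, with Ccl5 past the limit, under HTODemux, without doublet removal, with TMM, and without shared barcodes, the top 1% of cells, clusters 10 and 18, or cluster 12. In blood labelled WT (2), it was 1 without cluster 12, which there was 9 and 2 basophil or mast cell-like cells, and 0 with makeup held, and labelled cKO (0) it was 1 with myeloid clusters alone and 1 without clusters 10 and 18. For cKO against WT, blood control (2) gave 1 without cluster 12 and 0 with makeup held, and tumor control (2) gave 1 with the other hashtag margin, 1 without cluster 12 and 1 with makeup held. Blood IR (0) gave 1 with the other margin, HTODemux, TMM, myeloid clusters alone, without the top 1% of cells, and without clusters 10 and 18. The IR ratio of Ccl5 in tumors labelled WT (-0.90) was -0.72 with the other margin, -0.97 with HTODemux, -0.82 without doublet removal, -0.76 with TMM, -0.73 with myeloid clusters alone, -0.44 without clusters 10 and 18, -0.86 without cluster 12, -0.99 without cluster 16 and -0.63 with makeup held. Labelled cKO (0.99), it was 1.04 with HTODemux, 1.09 without doublet removal, 1.19 with TMM, 0.70 with myeloid clusters alone, 1.02 without shared barcodes, 1.06 without the top 1% of cells, 1.03 without clusters 10 and 18, 1.01 without cluster 12, 0.58 without cluster 16 and 0.48 with makeup held. The causes were not tested beyond what each setting leaves out. Of 48 ratios, 36 stayed within their counting interval with the other margin, 31 with HTODemux, 44 with every barcode, 25 with TMM, 11 with myeloid clusters alone and 48 without shared barcodes. Of the levels per named class, 30 of 42 did at resolution 0.4 and 41 of 60 at 1.2. With makeup held, 12 of 48 ratios changed sign, all of them below the limit. Under other settings, Ccl4 with IR in blood labelled cKO went from -0.87 to 0.10 without clusters 10 and 18, and Ccl3 between labels in tumor IR from -0.35 to 0.05 without cluster 12, while Ccl9 and Ccr1 between labels in tumor control went from -0.21 to 0.06 and from -0.19 to 0.09 without cluster 16. Depth limited Ccl3 and Ccl4 in blood most, at 430 to 1867 UMIs per group.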
